A study of Mus musculus with 8 samples.

Results

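Genes of glutathione synthesis, recycling and conjugation (10 of the 16093 named genes with a retained probe) were followed in the retinas of aged mice. They are Gclc, Gclm and Gss, which make glutathione, Gsr, which recycles it, and the transferase genes Gstm1, Gstm2, Gstm5, Gstp1, Gsta3 and Gsta4, and they were chosen by name through the accession printed for each probe on the array. All 10 genes were on the array, with 14 probes, and 14 of the 14 were well above background on all 8 arrays. No member differed between genotypes at the threshold used here, a fold change of at least 1.5 with a Benjamini-Hochberg adjusted p under 0.05 from limma. For 13 of the 14 probes the 95% interval of the difference lay within a 1.5-fold change in either direction.

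RNA came from whole retina of mice 46 to 55 weeks old by the labels, on a C57BL/6J background. Of the samples, 4 were from mice labelled as homozygous for the Mrp4 knockout (called Mrp4-null 1 to 4) and 4 from wild-type mice (wild-type 1 to 4), and no treatment was named for either genotype. Each sample was labelled with Cy3 and hybridized to 1 one-color Agilent array, and all 8 shared 1 slide. The genotypes occupied different rows of that slide, so row and genotype cannot be told apart. The methods name tissue from 3 mice and do not make clear whether a sample pooled animals, so the p-values measure the spread between these samples. In whole tissue a smaller number of cells of a type cannot be told apart from less RNA in each cell.

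Glutathione is a tripeptide thiol that cells use to reduce peroxides and to tag reactive compounds for export. Glutamate-cysteine ligase, made of a catalytic subunit (GCLC) and a modifier subunit (GCLM), carries out the limiting step of its synthesis, glutathione synthetase (GSS) the last step, and glutathione reductase (GSR) returns the oxidized form to the reduced one with NADPH. Glutathione S-transferases of the mu, pi and alpha classes (Gstm, Gstp and Gsta genes) join glutathione to electrophiles such as 4-hydroxynonenal, a product of lipid peroxidation to which the fatty acids of photoreceptor outer segments are prone. MRP4, encoded by Abcc4, is an efflux pump that can carry glutathione and some organic anions out of the cell.

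Abcc4 went against the labels. Its normalized log2 signal was 10.84, 10.71, 10.64 and 10.80 on Mrp4-null 1 to 4 and 6.62, 7.13, 6.54 and 7.02 on wild-type 1 to 4, which gave a log2 fold change of 3.92 with a standard error (SE) of 0.14 (limma adjusted p = 1.36e-05). The targeted gene was thus higher on the arrays labelled Mrp4-null, and every direction below follows the labels as deposited. Whether its probe lies inside the deleted stretch was not tested, since the probe's sequence was not used here. Of the 3 nearest tested genes on either side (Tgds, Gpr180, Sox21, Cldn10, Dzip1 and Dnajc3), 1 was called, and their log2 fold changes ran from -1.80 to 1.74.

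Many genes of this set are known targets of NRF2, the transcription factor of the oxidative stress response, which binds an antioxidant response element. The core of that element, TGACNNNGC, was searched on both strands in RefSeq promoters of GRCm38.p6, each from 250 bases before to 50 bases after a gene's start. Of the 10 members, 7 had a promoter in that table (8 promoters), and the core stood in 3 of those 8 promoters (37.5%), against 4071 of all 32851 promoters (12.39%). Counted by gene, 3 of the 7 members (42.86%) held it, against 11 of 63 other glutathione genes with a promoter (17.46%). The 150 bases before the start are shown for the 3 members that hold it, with the core in capitals, because these are 1 gene of synthesis and 2 transferases whose values are set out below. Counted from the start, the core begins at base -134 in Gclm (where it is read on the opposite strand), at -121 in Gsta3 and at -42 in Gstm5. All 3 stretches are on the plus strand, at chr3:122245407-122245556 for Gclm, chr1:21240435-21240584 for Gsta3 and chr3:107895704-107895853 for Gstm5.
Gclm: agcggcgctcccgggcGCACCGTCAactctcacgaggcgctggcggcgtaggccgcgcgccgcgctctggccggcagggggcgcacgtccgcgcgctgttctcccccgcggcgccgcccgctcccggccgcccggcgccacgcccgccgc
Gsta3: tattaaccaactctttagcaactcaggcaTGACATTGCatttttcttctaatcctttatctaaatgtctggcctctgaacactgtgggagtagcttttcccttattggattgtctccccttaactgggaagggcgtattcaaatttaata
Gstm5: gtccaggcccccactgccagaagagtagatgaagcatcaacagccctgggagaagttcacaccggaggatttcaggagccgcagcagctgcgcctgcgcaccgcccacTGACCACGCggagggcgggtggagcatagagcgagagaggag
The promoters of Gstm1, Gstm2, Gstp1 and Gss in the table did not hold these letters. A match describes the sequence only, and no binding was measured in these retinas.

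The enzymes of synthesis did not differ between genotypes beyond the spread of the arrays. Gclc, the catalytic subunit of the ligase, had a normalized log2 signal of 10.81, 11.15, 11.25 and 10.73 on Mrp4-null 1 to 4 and of 11.21, 10.71, 11.06 and 10.78 on wild-type 1 to 4. Both genotypes held a pair of high and a pair of low arrays over nearly the same range, and the log2 fold change was 0.05 (95% interval -0.31 to 0.40). Gclm, the modifier subunit, read 10.48, 10.90, 10.75 and 10.36 on Mrp4-null 1 to 4 and 10.71, 10.44, 10.72 and 10.48 on the wild-type arrays. Its high arrays were the same as for Gclc, and its log2 fold change was 0.03 (95% interval -0.28 to 0.35).

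Gss was measured by 2 probes. The brighter, A_55_P2738714, read 11.08, 11.22, 11.06 and 10.94 on Mrp4-null 1 to 4 and 11.13, 10.95, 11.06 and 10.93 on wild-type 1 to 4, with a log2 fold change of 0.06 (95% interval -0.14 to 0.26). The other, A_66_P136921, had a log2 fold change of -0.02 (95% interval -0.25 to 0.22). The probes thus lay on either side of zero.

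Gsr, the reductase, read 11.11, 10.73, 10.90 and 11.30 on Mrp4-null 1 to 4 and 10.89, 11.33, 10.92 and 11.19 on wild-type 1 to 4. The genotypes overlapped over most of their range, and the log2 fold change was -0.07 (SE 0.15, 95% interval -0.42 to 0.27, limma adjusted p = 1.00). Gsr lies on chromosome 8, where 35 of the 837 tested genes were called, more than on the chromosomes of the other members (1 to 3 each). The nearest called gene, Ckap2, was 70 tested genes away, and none of the 3 tested genes on either side of Gsr (Tex15, Ppp2cb, Ubxn8, Gtf2e2, Smim18 and Rbpms) was called, with log2 fold changes from -0.15 to 0.30.

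**Figure D1:**
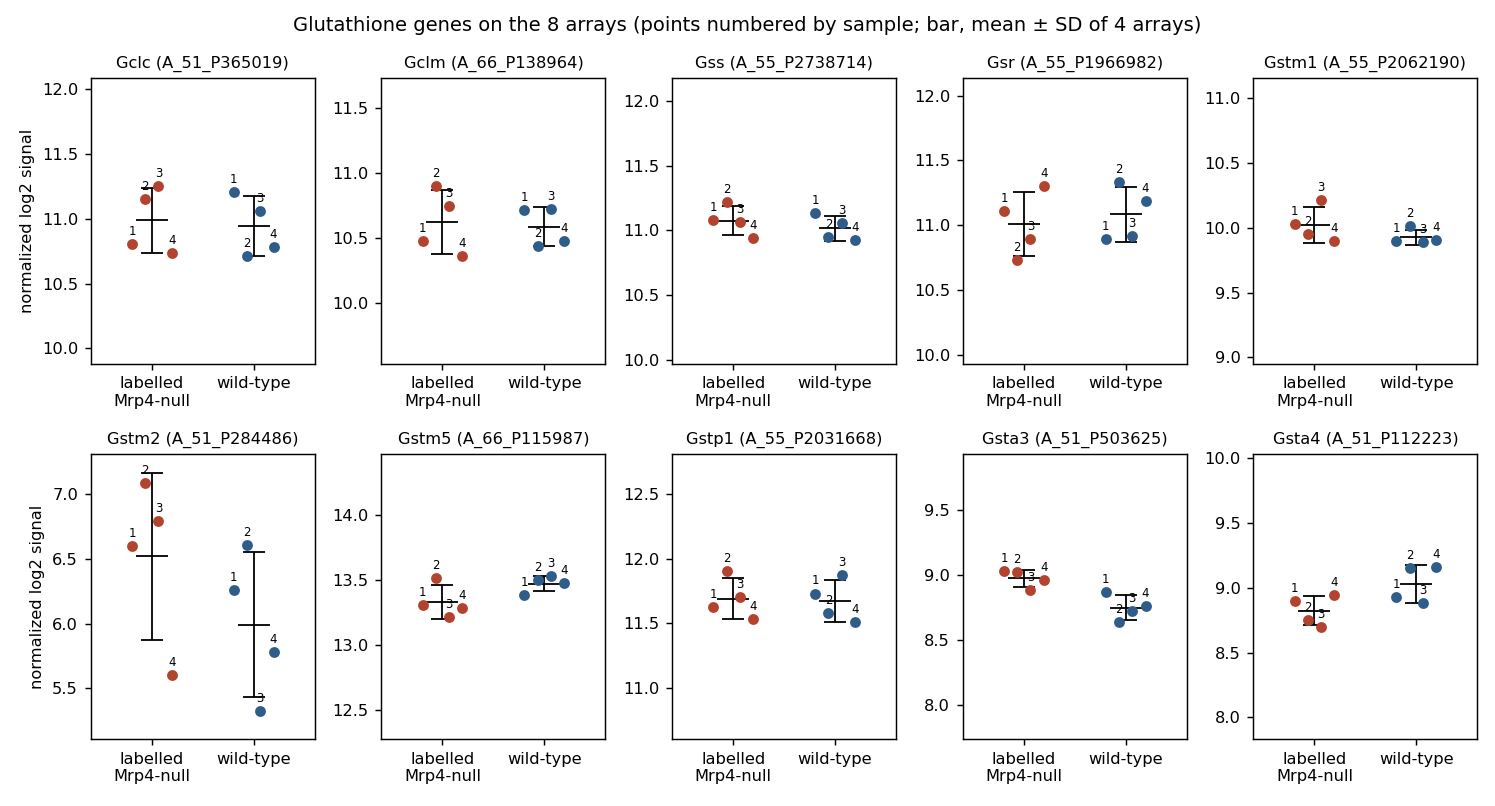
Normalized log2 signal of each gene (y axis, of the same length in every panel) on the 4 arrays labelled Mrp4-null (red) and the 4 wild-type arrays (blue), for the probe with the highest mean signal. Points carry the sample number and bars give the mean ± SD; Gsta3 is the gene whose genotypes did not overlap, and Gstm2 has the widest spread.

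Among the transferases, Gsta3 was the member whose arrays did not overlap between genotypes. This alpha-class enzyme, known in the mouse for conjugating aflatoxin epoxide, read 9.03, 9.02, 8.89 and 8.96 on Mrp4-null 1 to 4 and 8.87, 8.63, 8.72 and 8.76 on wild-type 1 to 4 with the probe A_51_P503625. The lowest array labelled Mrp4-null lay just above the highest wild-type array. The log2 fold change was 0.23 (SE 0.08, 95% interval 0.05 to 0.41, a 1.17-fold difference), with an unadjusted p of 0.0199 and an adjusted p of 0.564 from limma, so that it did not pass. It was the 1 member probe of 14 with an unadjusted p under 0.05, where 6.46% of all retained probes had one, and the 1 of 14 without overlap, where the figure for all retained probes was 4.79%. The second probe, A_55_P1961423, read 8.24, 8.03, 8.06 and 8.29 against 8.10, 8.00, 7.91 and 8.04, and here the genotypes overlapped (log2 fold change 0.14, 95% interval -0.06 to 0.34).

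Sex-linked genes also separated some arrays, and sex is not given in the labels. Xist, transcribed from the inactive X chromosome, was well above background on Mrp4-null 1 to 4 and on wild-type 1 and 2. Of 7 probes for Y-linked genes, none was above background on Mrp4-null 1 to 4 or wild-type 1, 6 were on wild-type 2 and 7 were on wild-type 3 and 4. The 3 arrays with Y-linked signal were also the 3 lowest for Gsta3 with the probe A_51_P503625, though not with A_55_P1961423. With only the 6 arrays on which Xist was well above background, the log2 fold change of Gsta3 was 0.22 (limma adjusted p = 1.00). These still included wild-type 2, which carried Y-linked signal. On wild-type 1, the only wild-type array without it, Gsta3 read 8.87, against a mean of 8.97 on the arrays labelled Mrp4-null, and the part of sex in this value was not tested. None of the other 9 members was called with those 6 arrays either, though the value for Gstm2, given below, was far smaller.

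Gsta4, the alpha-class transferase with the best known activity toward 4-hydroxynonenal, was the member furthest below zero by the labels as deposited. In either direction, Gstm2 (0.53) and Gsta3 (0.23) lay further from zero. It read 8.90, 8.75, 8.70 and 8.94 on Mrp4-null 1 to 4 and 8.93, 9.15, 8.88 and 9.16 on wild-type 1 to 4. Wild-type 2 and 4 were above every array labelled Mrp4-null, while wild-type 1 and 3 were not. The log2 fold change was -0.21 (SE 0.10, 95% interval -0.44 to 0.02, limma adjusted p = 0.858).

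The mu-class genes lie in a cluster on chromosome 3 and resemble each other in sequence, and whether signal was shared between Gstm1, Gstm2, Gstm5 and their neighbours was not tested, since the probe sequences were not used here. Gstm1 read 10.03, 9.95, 10.21 and 9.90 on Mrp4-null 1 to 4 and 9.90, 10.01, 9.89 and 9.90 on wild-type 1 to 4 with A_55_P2062190. Apart from Mrp4-null 3, the arrays differed little, and the log2 fold change was 0.09 (95% interval -0.11 to 0.30). Its second probe, A_55_P1966432, gave 0.08 (95% interval -0.18 to 0.33) and was likewise highest on Mrp4-null 3, at 9.03.

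Gstm5, a mu-class enzyme known from brain and testis, read 13.30, 13.52, 13.21 and 13.28 on Mrp4-null 1 to 4 and 13.39, 13.50, 13.53 and 13.48 on wild-type 1 to 4 with A_66_P115987. All arrays labelled Mrp4-null but Mrp4-null 2 were below every wild-type array. The log2 fold change was -0.14 (SE 0.09, 95% interval -0.34 to 0.06, limma adjusted p = 0.972). The second probe, A_51_P260169, read 12.27, 12.13, 11.95 and 12.25 against 12.07, 12.42, 12.20 and 12.31, a log2 fold change of -0.10 (95% interval -0.35 to 0.14).

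Gstm2 was the member with the widest spread, and the 1 for which a 1.5-fold difference lay inside the interval. It read 6.59, 7.09, 6.79 and 5.60 on Mrp4-null 1 to 4 and 6.26, 6.61, 5.33 and 5.78 on wild-type 1 to 4. Its highest value was from an array labelled Mrp4-null and its lowest from a wild-type array, with overlap in between. The log2 fold change was 0.53 (SE 0.36, 95% interval -0.30 to 1.35, limma adjusted p = 1.00), a 1.44-fold difference. It was 0.24 with another background correction and 0.12 without Mrp4-null 2 and wild-type 3, the dimmest array of each genotype, and was 0.34 or 0.30 when either of these was left out alone. With only the 6 arrays above background for Xist it was 0.08. Leaving out Mrp4-null 4 gave 0.83. Over the 8 arrays, the named probes most like it of 23643 compared were those of Kcnj11 (Pearson r = 0.958, Spearman rho = 0.905), Tlx2 (r = 0.945, rho = 0.929) and Cd3d (r = 0.938, rho = 0.857). The points are the same 8 arrays of 1 slide, normalized together.

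Gstp1, the pi-class transferase, read 11.62, 11.90, 11.70 and 11.53 on Mrp4-null 1 to 4 and 11.73, 11.58, 11.87 and 11.51 on wild-type 1 to 4. The genotypes covered almost the same range, and the log2 fold change was 0.02 (95% interval -0.24 to 0.28). Its neighbour on chromosome 19 is the near-identical Gstp2, and their signals may not be separate.

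**Figure D2:**
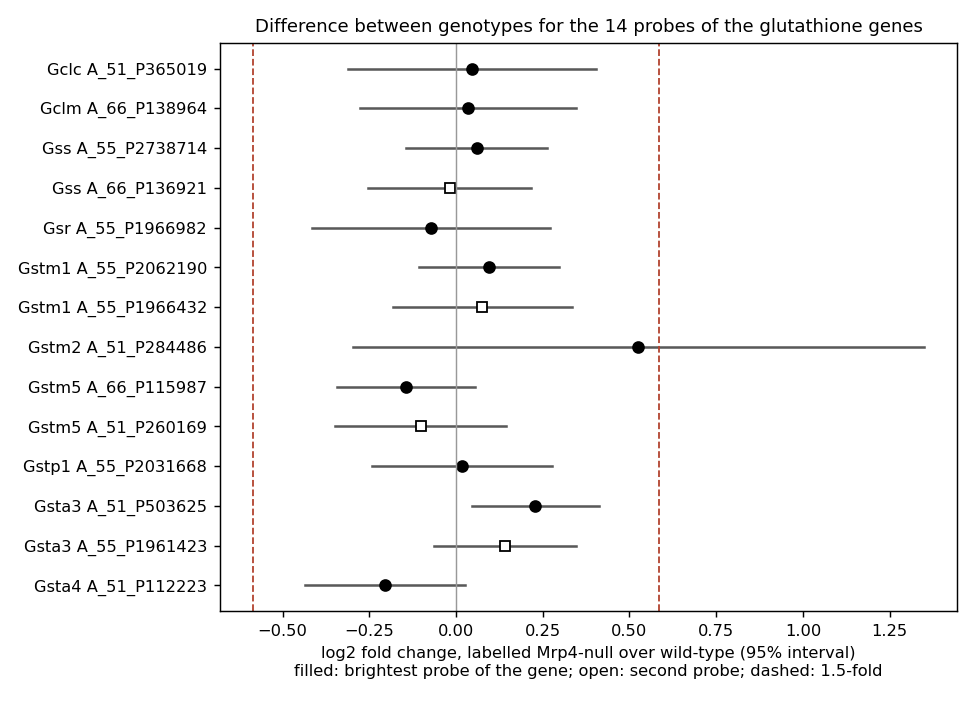
Log2 fold change of the arrays labelled Mrp4-null over wild-type (x axis) for the 14 probes of the 10 genes (y axis), with 95% intervals from limma and dashed lines at a fold change of 1.5. All intervals but that of Gstm2, which runs from -0.30 to 1.35, lie between the dashed lines, and that of Gsta3 A_51_P503625 does not cross zero.

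The differences of the members were of the size seen over all probes. None of the 10 was called by limma, where 202 of 37085 retained probes (0.545%) were, 95 higher and 107 lower. The local pooled error test (LPE), adjusted in the same way, called none of them and 236 probes (0.636%) in all. By unadjusted p under 0.05, the count was 1 of the 14 member probes. With 1 probe per gene, the log2 fold change was above zero for 7 members and below for 3, with a median of 0.04 (-0.0044 to 0.11 with 1 array left out). The median absolute difference was 0.08 on the log2 scale (1.06-fold), against 0.08 for all retained probes. The interval lay within a 1.5-fold change for 13 of 14 member probes and for 77.2% of all retained probes, and the median SD over the 8 arrays was 0.16 for the members and 0.19 for all. No member had a called gene within 50 tested genes of it on its chromosome.

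Differences between arrays of the same genotype exceeded those between genotypes for the synthesis genes. Gclc, Gclm and Gstp1 were above their genotype's mean on Mrp4-null 2 and 3 and on wild-type 1 and 3, and below it on the other arrays. Gsr and Gsta4 showed exactly the reverse. Of these 5 genes, the deviations furthest from zero were 0.29 for Gsr on Mrp4-null 4 and 0.28 for Gclm on Mrp4-null 2, in log2 units. The named probes most like Gclc over the 8 arrays were those of Sf3b2 (r = 0.998, rho = 0.976), Tbc1d14 (r = 0.996, rho = 1.00) and Tecpr2 (r = 0.994, rho = 0.952).

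This alternation was shared by much of the array. Of 37075 probes with a value on all arrays, 11.8% had the sign pattern of Gclc and 13.4% the reverse, 25.3% together, and the first principal component held 56.3% of the variation within genotypes. Its most extreme array was Mrp4-null 2, which had the lowest 75th percentile of signal, 497, and among the wild-type arrays it was wild-type 3, at 514, while Mrp4-null 3 and wild-type 1 were at 725 and 700. Over all arrays the 75th percentile ran from 497 to 786 and the share of probes well above background from 66.0% to 69.9%. The part of array brightness in the values of Gclc, Gclm and Gsr was not tested beyond leaving out the dim arrays, which gave log2 fold changes of 0.03, -0.01 and -0.04.

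**Figure D3:**
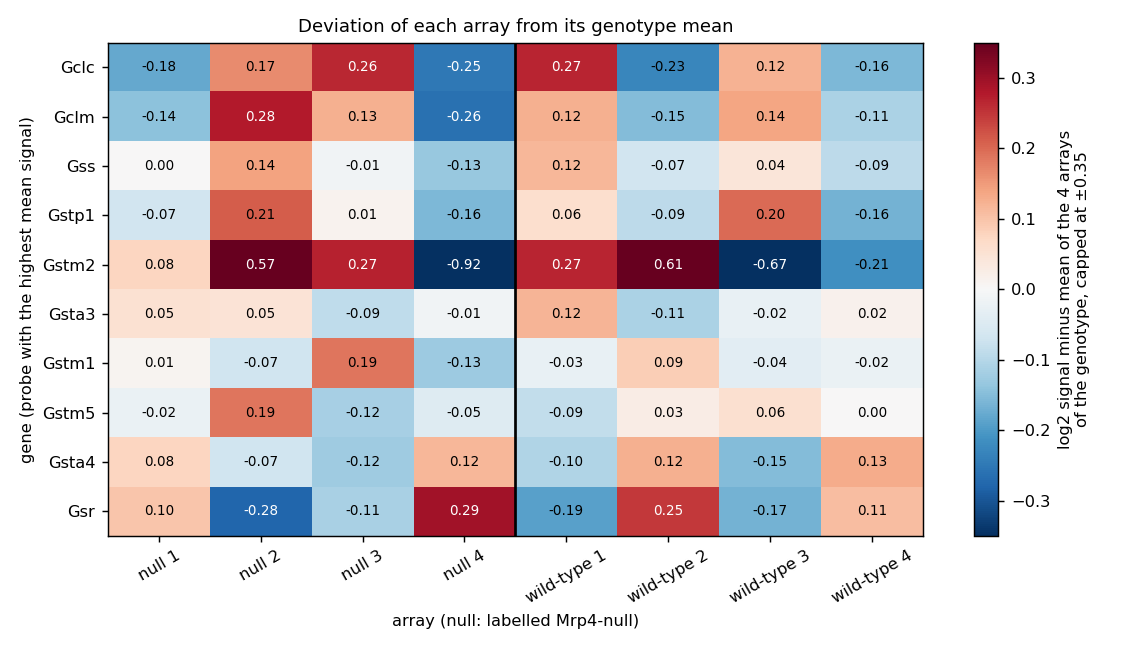
Log2 signal of each gene (rows, probe with the highest mean signal) on each array (columns) minus the mean of the 4 arrays of its genotype, in log2 units, with colour capped at 0.35. Gclc, Gclm and Gstp1 are positive on Mrp4-null 2 and 3 and wild-type 1 and 3, where Gsta4 and Gsr are negative.

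The other genes of glutathione metabolism gave no call by limma either. Of 71 genes listed, 70 were on the array and 61 had a retained probe (81 probes), with a median log2 fold change of -0.04. Of the 81 probes, 8 had an unadjusted p under 0.05, where 6.46% of all retained probes had one, and 5 did not overlap between genotypes, where the share over all retained probes was 4.79%. By the LPE test, which called 0.636% of all retained probes, 1 gene was called, Gpx3. Since the list was drawn up with results of these data known, the counts describe it and test nothing.

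Gpx3, the secreted plasma form of glutathione peroxidase, was the gene of the list with the largest difference. It read 9.28, 9.75, 9.55 and 8.52 on Mrp4-null 1 to 4 and 8.52, 8.60, 7.94 and 8.33 on wild-type 1 to 4. All arrays labelled Mrp4-null but Mrp4-null 4, which lay among the wild-type arrays, were above every wild-type array. The log2 fold change was 0.93 (SE 0.26, 95% interval 0.33 to 1.53), with an adjusted p of 0.344 from limma and of 0.00190 from the LPE test. The call thus rests on the LPE test, which on simulated data found more of the changed probes than limma but also made more false calls. Of 6 markers of ciliary body and iris, 3 were retained, with log2 fold changes from -0.01 to 1.53. Their summed level was 12.52, 12.63, 12.76 and 12.26 on Mrp4-null 1 to 4 and 12.47, 12.32, 12.32 and 12.29 on wild-type 1 to 4. It was lowest on Mrp4-null 4 within that genotype, as were the sums of the bipolar cell (16.49), endothelial (11.89) and microglia (11.19) markers. Among the wild-type arrays, Gpx3 was lowest on wild-type 3 and the ciliary body and iris sum on wild-type 4. The part of these tissues or cell types in Gpx3 was not tested. Of the other 6 retained peroxidases, Gpx7 was at 0.11 and Gpx4, the lipid hydroperoxide reductase, at -0.07 (-0.04 without wild-type 3).

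Of the genes grouped as other transferases, among them Ptges and Clic1, 20 of 23 on the array had a retained probe. Of these, 5 were above zero and 15 below, and none passed. Gsta2, an alpha-class neighbour of Gsta4 on chromosome 9, read 5.13, 5.13, 4.80 and 5.29 on Mrp4-null 1 to 4 and 5.69, 6.03, 5.31 and 5.80 on wild-type 1 to 4. The genotypes did not overlap, though only barely between Mrp4-null 4 and wild-type 3. Its log2 fold change was -0.62 (SE 0.17, limma adjusted p = 0.288). Microsomal Mgst2 had a log2 fold change of -0.52 (adjusted p = 0.768) and Mgst1 of 0.24 (adjusted p = 1.00) from limma. Without Mrp4-null 3, they were at -0.36 and 0.10.

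Supply of precursors was measured by 8 genes. Slc7a11, the cystine-glutamate exchanger that brings in cystine for glutathione, read 5.62, 5.73, 6.69 and 5.81 on Mrp4-null 1 to 4 and 5.49, 5.58, 5.42 and 5.06 on wild-type 1 to 4. The genotypes did not overlap, and the spread came mostly from Mrp4-null 3. Its log2 fold change was 0.57 (SE 0.23, limma adjusted p = 0.707) and was 0.33 without that array. A second probe of Slc7a11, A_52_P368057, was too dim to be retained. Before normalization its signal overlapped between genotypes and was lowest on Mrp4-null 2, at 5.06. Cbs, the first enzyme of the route from homocysteine to cysteine, had a log2 fold change of -0.34 (limma adjusted p = 0.508).

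Breakdown of glutathione was measured by 7 retained genes. Chac1, a cytosolic enzyme that cleaves glutathione and is induced in endoplasmic reticulum stress, read 10.33, 10.45, 10.57 and 10.46 on Mrp4-null 1 to 4 and 10.24, 10.15, 10.18 and 10.19 on wild-type 1 to 4. Every array labelled Mrp4-null was above every wild-type array, by a small margin. The highest wild-type array was wild-type 1, the only wild-type array without Y-linked signal, and the part of sex was not tested. The log2 fold change was 0.26 (SE 0.08, 95% interval 0.08 to 0.44, limma adjusted p = 0.391), which is within a 1.5-fold change. Anpep, an aminopeptidase, had a log2 fold change of 0.19 (SE 0.49), which was -0.32 without Mrp4-null 3 and 0.50 without Mrp4-null 2. Ggct had one of -0.16, which was -0.08 without Mrp4-null 3 and -0.22 without wild-type 1.

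None of the 7 genes grouped with glutaredoxins and glyoxalases, among them Esd, was called. Nor was any of the 5 genes of NADPH supply or the 7 genes of NRF2 and its other targets. Glrx, a glutaredoxin that removes glutathione from proteins, had a log2 fold change of -0.42 (-0.22 without wild-type 4), Glrx5 of -0.16 and Esd of -0.06 (-0.09 without Mrp4-null 2 to -0.02 without Mrp4-null 1 or wild-type 3). Among the enzymes that make NADPH for the reductase, Idh1 was at -0.16, G6pdx at -0.11 and Me1 at 0.05. With 1 array left out, these ran from -0.25 to -0.03 (the latter without Mrp4-null 2), from -0.15 to -0.06 (without Mrp4-null 4) and from 0.01 (without Mrp4-null 4) to 0.10 (without Mrp4-null 2). Of the NRF2 targets, Osgin1 was at 0.43 (limma adjusted p = 0.747), Hmox1, heme oxygenase 1, at 0.39 and Nqo1 at -0.16. Without Mrp4-null 3, Hmox1 was at 0.08 and Nqo1 at 0.01, and without Mrp4-null 1, Nqo1 was at -0.32.

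**Figure D4:**
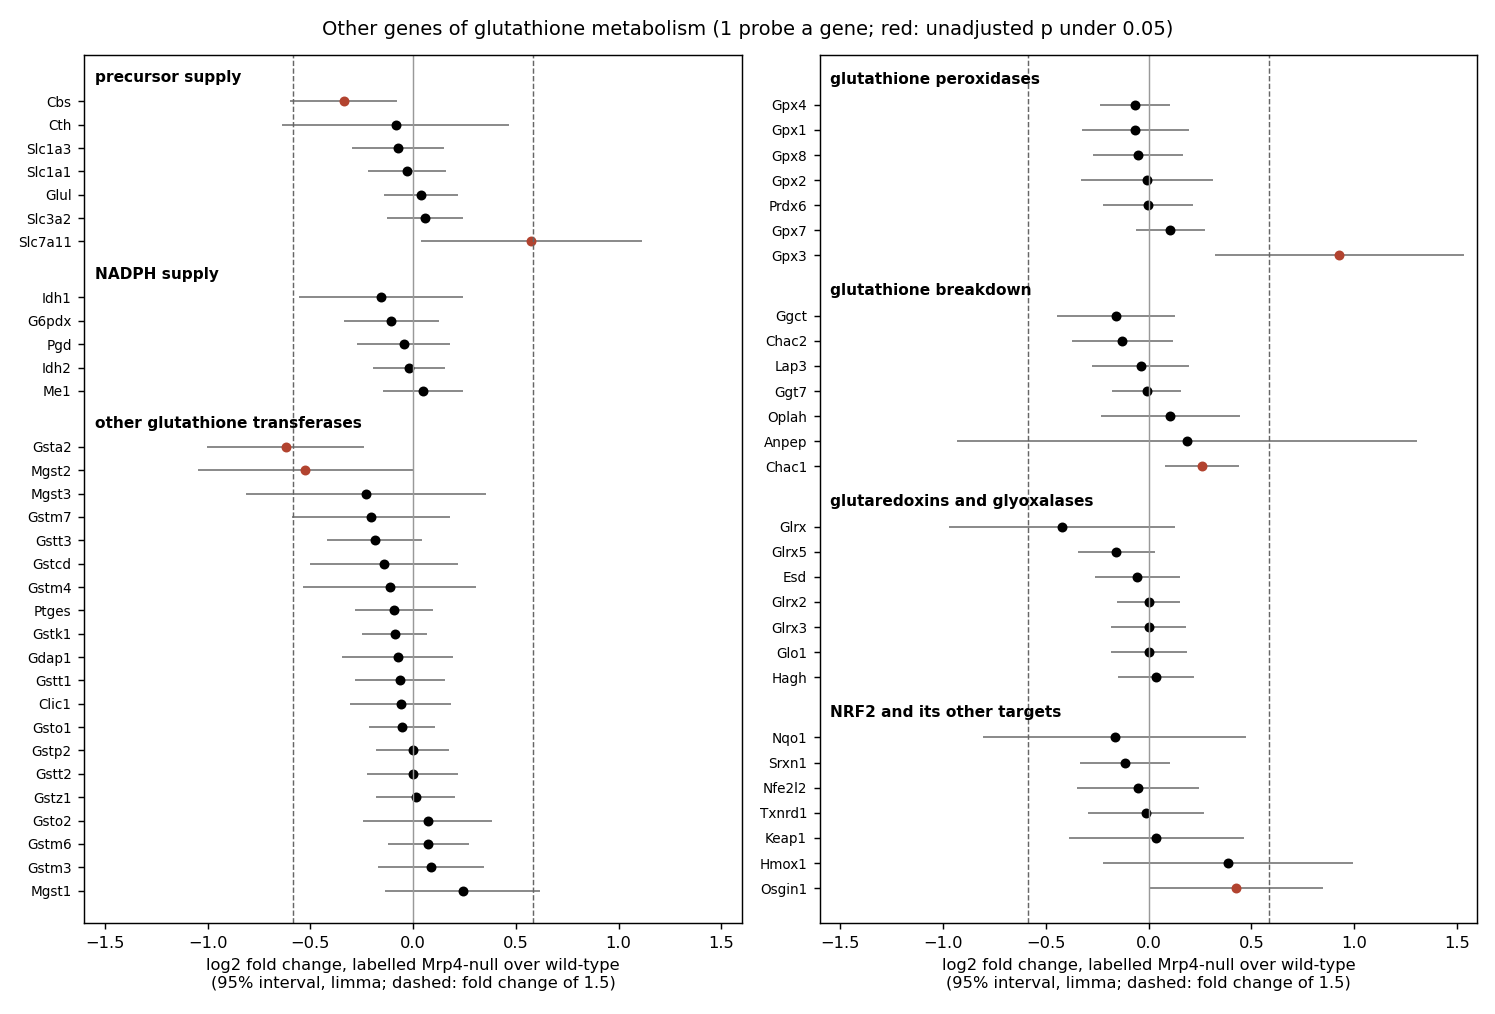
Log2 fold change of the arrays labelled Mrp4-null over wild-type (x axis) with 95% intervals from limma for the other glutathione genes with a retained probe (y axis, by role; 1 probe a gene; 1 of the 61 is not drawn), with dashed lines at a fold change of 1.5. Red marks an unadjusted p under 0.05; none passed after adjustment, and Gpx3 lies furthest from zero, at 0.93.

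**Figure D5:**
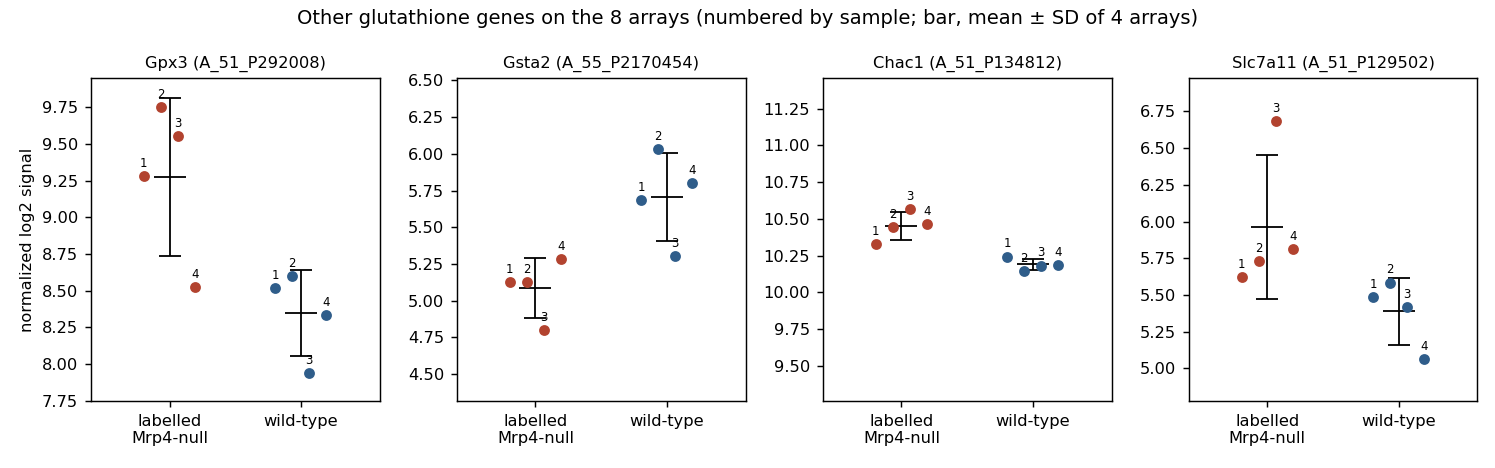
Normalized log2 signal (y axis, of the same length in every panel) of Gpx3, Gsta2, Chac1 and Slc7a11 on the arrays labelled Mrp4-null (red) and wild-type (blue), numbered by sample, with the mean ± SD. Gsta2, Chac1 and Slc7a11 do not overlap between genotypes, whereas Mrp4-null 4 lies among the wild-type arrays for Gpx3.

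The tissue was retina by its markers, and lens markers were also present. All 8 rod markers were retained, and their summed log2 level was 19.31 to 19.42 on the arrays labelled Mrp4-null and 19.30 to 19.42 on the wild-type arrays. The 7 Muller glia markers, from the cells that hold much of the retina's glutathione, summed to 16.81 to 16.91 and 16.83 to 16.89. The 6 endothelial markers summed to 11.89 to 12.36 and 12.24 to 12.60. The 5 bipolar cell markers had a median log2 fold change of 0.20 (summed level 16.49 to 16.57 and 16.40 to 16.54). Of the 6 ganglion cell markers, 5 had a lower mean on the arrays labelled Mrp4-null (summed level 15.90 to 15.96 and 15.94 to 16.18). By any retained probe of a gene, an unadjusted p under 0.05 was found for 3 bipolar, 2 endothelial, 1 Muller glia and 1 ganglion cell marker. None was found for rods, and 6.46% of all retained probes had such a p. Neither limma nor the LPE test called a marker of these 5 cell types. Of 15 lens markers, 14 were retained, and 14 of the 14 had a lower mean on the arrays labelled Mrp4-null (median log2 fold change -1.39), with summed levels of 11.73 to 14.64 against 13.19 to 15.77. Limma called none of the 14, and the LPE test called 11 by the same probes. The LPE test called 0.636% of all retained probes, and on simulated data it made more false calls than limma. Counting a gene by any of its retained probes, limma called none, 4 had an unadjusted p under 0.05 and the LPE test called 12. The part of lens RNA in the values of the transferase genes was not tested.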

How the data were processed

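The deposited scanner files, made by the authors with Agilent Feature Extraction 11.0.1.1, hold background-subtracted and detrended signal intensity on a linear scale with flags per spot, not normalized between arrays. Their deposited table of values for the series equals the mean intensity of each probe (56605 of 56605 within a relative difference of 1e-3). The part of the methods used here was log2 transformation and quantile normalization of the deposited intensity. The members, the other lists and the tests were chosen with earlier results of these data known.

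Of 62976 spots on an array, 59305 were not controls. Spots marked as outliers (78 to 143 an array) were left out, no spot was saturated, and repeated spots of a probe were averaged as log2 intensity. A probe was retained if, in 1 genotype or both, it was measured on 3 or more arrays and well above background on each, with 2 or more measured in the other genotype. This left 37085 of 56605 probes. Accessions named 32994 probes through RefSeq's gene table of GRCm38.p6, used for names, chromosomes and gene order. The array design carries an older build, so no probe coordinates are given. Genotypes were compared with limma 3.58.1 in R 4.3.3 (lmFit and eBayes, with no covariate beside genotype), with Benjamini-Hochberg adjustment over the retained probes. The methods' local pooled error test served as an alternative. Both were tested on simulated data, where the local pooled error test found more of the changed probes and made more false calls. Where 1 value per gene was needed, the probe with the highest mean signal was used. Of the other glutathione genes, the text names any called gene and the 3 with the largest absolute log2 fold change in each role, of which 1 is not reported here; the genes most like a member are given for the 2 members with the largest SD. Alternatives were other normalizations, filters, tests and thresholds, outlier spots kept, the deposited table, a block by sample number, leaving out each array, and 2 subsets of arrays chosen after seeing the data. The normexp background correction (offset 50) used the median spot and background intensity. With 4 arrays per genotype, precision is limited by their number.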

Additional observations from a re-analysis of the deposited data

Results flagged for a closer look

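In 3 of 72 groups of 4 arrays tested, 1 array stood apart from the rest, with a gap to its nearest neighbour, as a share of the group's range, above Dixon's 95% critical value. Chance flags about 1 group in 20. For Gstm1 (A_55_P2062190) on the wild-type arrays the gap was 0.904 of the range, with wild-type 2 at 10.01 and the others between 9.89 and 9.90. For Me1, which makes NADPH, it was 0.839, with wild-type 3 at 13.75 below the others. For Hmox1 it was 0.894, with Mrp4-null 3 at 9.77 and the other arrays of that genotype between 8.51 and 8.65.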

How the results depend on the processing

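None of the 10 members was called under any of 23 alternatives. Of the members' log2 fold changes, those of Gstm1, Gstm2, Gstm5, Gsta3, Gsta4 and Gss kept their sign in all 18 alternatives run for them, though Gstm1 was at 0.0321 without Mrp4-null 3 and Gss at 0.0123 without Mrp4-null 2. Leaving out 1 array at a time gave -0.0432 to 0.134 for Gclc, -0.0584 to 0.122 for Gclm, -0.171 to 0.0190 for Gsr and -0.0525 to 0.0827 for Gstp1. Gstp1 was also below zero with a shift to the 75th percentile (-0.0142), as was Gclm without Mrp4-null 2 and wild-type 3 (-0.0124), an alternative chosen after seeing the data. The count of all probes called was 71 with the sample number as a replicate block, 554 with a fold change of 1.5 and unadjusted p, 128 without the 2 dim arrays, 62 with only the arrays above background for Xist (also chosen after seeing the data), and 117 to 188 with 1 array left out, the lowest being 131, 129 and 117 without wild-type 2, 3 and 4. Same-numbered arrays did not deviate together (correlations -0.29, -0.69, 0.03 and 0.41), so the block pairs samples by number only. Of the other glutathione genes, 1 was called by the local pooled error test (Gpx3). With a fold change of 1.5 and unadjusted p under 0.05, 2 were called (Gpx3 and Gsta2), as were 554 of all 37085 retained probes. The causes of these changes were not tested.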

Other observations

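Mrp4-null 3 was the array on which several genes read highest within its genotype. Besides Hmox1, these were Slc7a11 at 6.69 (5.62 to 5.81 on the other 3 arrays), Mgst1 at 9.65, Gstm1 at 10.21 and Chac1 at 10.57. The summed level of the 2 astrocyte markers, Gfap and Pax2, was 9.14 on that array and 7.68, 7.86 and 7.73 on the others of its genotype, and the 6 microglia markers summed to 12.08 there against 11.41, 11.52 and 11.19. On the wild-type arrays these sums ran from 7.34 to 7.90 and from 11.33 to 11.51. Other marker sums were also highest on Mrp4-null 3 within its genotype. They were those of bipolar cells (16.57), amacrine and horizontal cells (15.45), endothelium (12.36), ciliary body and iris (12.76) and blood (14.25). The sums for rods, cones, ganglion cells, Muller glia, pericytes, lens and pigment epithelium were not highest there. Gsta4, by contrast, was lowest on Mrp4-null 3 within its genotype, at 8.70.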
